A study of Homo sapiens with 12 samples.

Results

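The genes described here are 37 genes of amino acid supply and of the wider target set of the transcription factor ATF4, given as a list of symbols and matched to the row of the count table with the most reads for each symbol. All 37 were found among the 57905 gene identifiers of the table. By role they comprise 6 genes of serine, glycine and one-carbon synthesis, 6 of other amino acid synthesis, 9 amino acid carriers, 6 transcription factors, 4 brakes on growth signalling, 3 genes for secreted factors and a receptor, and 3 further genes. The RNA came from cells of OCI-AML3, a long-established line from acute myeloid leukaemia, in 4 groups of 3 libraries each. In the first pair of groups, cells received SA at 500 µM, or vehicle, for 6 days; what SA stands for is not spelled out in the labels. In the second pair, cells carried the doxycycline-inducible guide RNA sgALAS1, against ALAS1, or the scrambled guide RNA sgSCR, and both received doxycycline for 7 days. The labels do not state whether the replicates were separate cultures, how many guide sequences or clones stood behind sgALAS1, or whether sgALAS1 and sgSCR cells were clonal. P-values therefore measure only the spread between these libraries, which may be technical.

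ATF4 is a transcription factor of the integrated stress response. When a stress kinase phosphorylates the initiation factor eIF2, general translation falls while ATF4 mRNA is translated more, and ATF4 then raises genes that make, import and charge amino acids, together with genes that feed back on growth signalling. One of those kinases, HRI, is held inactive by heme and is best known from red cell precursors; ALAS1 is the first enzyme of heme synthesis in cells other than these. Leukaemia cells are known for a high demand for serine, asparagine and glutamine, which several of the 37 genes help to meet.

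The libraries held 4658513 to 7339843 reads assigned to genes, with a median of 5573540. Levels are given as normalised CPM, in which reads are scaled to library size corrected by TMM factors, and the assay reads the 3′ ends of polyadenylated RNA. ALAS1 itself measured 26.2, 26.3 and 27.3 CPM in sgALAS1 libraries, against 38.6, 41.9 and 37.4 CPM in sgSCR libraries. The sgALAS1 libraries all lay lower, with log2 fold change -0.56 (SE 0.14, adjusted p = 0.00777), and the adjusted p became 0.0503 without sgSCR replicate 2. With vehicle as the control of sgALAS1, ALAS1 did not pass (-0.399, adjusted p = 0.0589). Reads at the 3′ end need not fall when a guide disrupts the coding sequence. With SA, ALAS1 measured 106, 102 and 111 CPM, against 37.5, 36.4 and 31.1 CPM in vehicle libraries. All 9 myeloid markers examined were tested, and their summed level was 2700 to 2920 CPM with SA, against 1510 to 1700 CPM in vehicle libraries. The same sum was 2360 to 2630 CPM in sgALAS1 libraries, against 1480 to 1660 CPM in sgSCR libraries. With SA 3 of the 9 were called higher (LYZ, SPI1 and CD14) and 0 lower, beside 4.83% and 6.24% of all genes tested. With sgALAS1 5 were called higher (LYZ, ANPEP, CEBPA, CSF1R and CD14) and 0 lower, beside 4.88% and 6.85%. LYZ, the lysozyme gene, held most of the rise of the sum: it had 1392, 1615 and 1358 CPM with SA, against 501, 544 and 646 CPM in vehicle libraries, and 955, 1099 and 1035 CPM in sgALAS1 libraries, against 356, 296 and 370.2 CPM in sgSCR libraries. MPO, the myeloperoxidase gene, was low throughout and lay below vehicle in all SA libraries (log2 fold change -1.03, adjusted p = 0.21). Of 6 lymphoid markers CD3E had no reads. The lymphoid sum was 5.05 to 9.35 CPM with SA, against 21.2 to 24.1 CPM in vehicle libraries, and 0.154 to 1.64 CPM in sgALAS1 libraries, against 13.2 to 14.1 CPM in sgSCR libraries. The 6 epithelial and stromal markers summed to 2.53 to 6.37 CPM with SA, against 7.17 to 9.73 CPM in vehicle libraries. In the other pair they summed to 2.88 to 6.18 CPM in sgALAS1 libraries, against 1.2 to 3.86 CPM in sgSCR libraries. The part of these marker lists in the members' changes was not tested.

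The promoters of these genes are known for a composite element that ATF4 binds with a C/EBP partner, written TGATGNAAN. It was searched on both strands of RefSeq windows that run from 250 bases before to 50 bases after each transcription start (GRCh38.p14). Windows were matched by symbol for 30 of the 37 genes, and 8 of these 30 genes (26.7%) had a match, beside 1215 of all 27305 genes with windows (4.45%). Counted by window, 8 of 47 windows of the members and 1268 of all 35116 windows had one. The matches lay in SLC38A1, ASNS, JDP2, SLC7A1, SLC1A4, SLC1A5, CEBPG and ATF3. The sequences below show the 6 of them with the smallest p in the comparison of SA with vehicle, with the element in capitals; ASNS is given with the full 250 bases before its start, the others with 10 bases on either side. A match is a description of letters and not a bound site.
ASNS: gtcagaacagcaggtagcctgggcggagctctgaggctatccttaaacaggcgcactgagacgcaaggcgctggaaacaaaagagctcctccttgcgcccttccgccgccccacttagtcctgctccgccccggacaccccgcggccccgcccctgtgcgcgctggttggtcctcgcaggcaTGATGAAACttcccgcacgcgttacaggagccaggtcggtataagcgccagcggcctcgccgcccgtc
SLC38A1: cagacccgaaTGATGAAAAgggatcagct
JDP2: tagccggggcTGATGCAACccgtcccgcc
SLC7A1: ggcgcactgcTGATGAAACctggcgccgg
SLC1A4: cggctggagaTGATGCAAAcgggagccgc
SLC1A5: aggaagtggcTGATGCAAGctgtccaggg
The ASNS stretch is chr7:97872409-97872658 on the minus strand, and its element begins 68 bases before the start. SLC38A1 is shown from chr12:46266502-46266530 on the minus strand, with the element 4 bases before the start. JDP2 is shown from chr14:75427996-75428024 on the plus strand, 16 bases before the start. SLC7A1 is shown from chr13:29595663-29595691 on the minus strand, 8 bases after the start. SLC1A4 is shown from chr2:64989381-64989409 on the minus strand, opposite to the gene, and the element as printed ends 8 bases before the start. SLC1A5 is shown from chr19:46784893-46784921 on the minus strand, 97 bases before the start.

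The first comparison asked how the genes differed between cells that received SA and cells that received vehicle. Of the 37 genes 36 passed the filter on low counts; NUPR1, with 13 reads over all libraries, did not. With SA, 24 of the 36 were lower and 1, ATF5, was higher at an adjusted p under 0.05 (edgeR quasi-likelihood test, Benjamini-Hochberg over all 13832 genes tested). Over all genes tested, 6.24% were called lower and 4.83% higher. The median log2 fold change of the 36 was -0.91, beside -0.01 over all genes tested. For 24 genes every SA library lay below every vehicle library, beside 14.8% of all genes tested; 2 of these 24, CEBPG and KLHL24, were not called, while TRIB3 and SESN2 were called although their groups overlapped. In bulk RNA, fewer cells that express a gene and less RNA per cell cannot be told apart. Leaving out each of the 6 libraries in turn kept 21 of the 25 calls; the other 4, SLC1A5, TRIB3, XPOT and ATF5, are marked below.

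The second comparison asked the same of cells with the guide against ALAS1 and cells with the scrambled guide. Here 10 of the 36 genes were lower in sgALAS1 libraries and 0 were higher, beside 6.85% lower and 4.88% higher over all genes tested. At an unadjusted p under 0.05, 19 genes were lower and 1 was higher in edgeR, and DESeq2 also called 0 higher. The share of all genes at an unadjusted p was not counted, here or below, so such counts have no background beside them. The median log2 fold change was -0.41, beside 0.00 over all genes tested. For 16 genes every sgALAS1 library lay below every sgSCR library, beside 15.5% of all genes. A fit of only the 6 libraries compared gave 14 lower genes, with PHGDH, SHMT2, MTHFD2 and XPOT added. Of the 10 calls 4, PSAT1, SLC38A2, SLC38A1 and EIF4EBP1, held when each of the 6 libraries was left out in turn. The count of lower genes became 4 without sgSCR replicate 2 or without sgALAS1 replicate 2, 5 without sgALAS1 replicate 3, and 6 without sgSCR replicate 3 or sgALAS1 replicate 1.

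**Figure D1:**
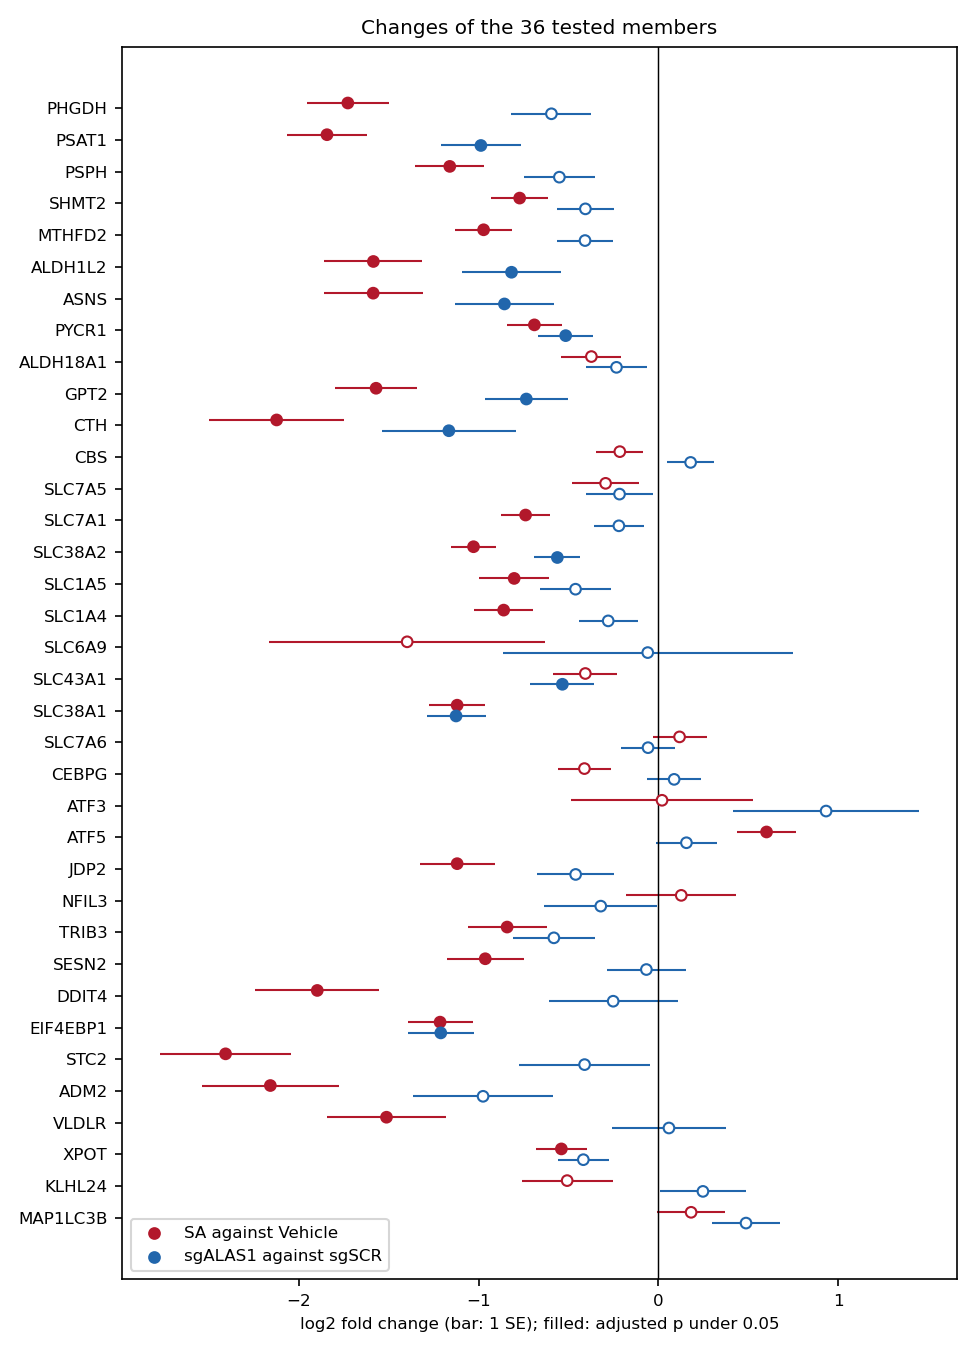
Log2 fold changes of the 36 tested genes (x axis) with SA against vehicle (red, upper point) and with sgALAS1 against sgSCR (blue, lower point); bars are 1 SE and filled points have an adjusted p under 0.05. There are 24 filled red points left of 0 and 1 right of it (ATF5), and 10 filled blue points, all left of 0.

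All 6 genes of serine, glycine and one-carbon synthesis fell with SA, and 2 of them, PSAT1 and ALDH1L2, fell with sgALAS1. Over all genes tested, 6.24% were called lower with SA and 6.85% with sgALAS1. PSAT1, the transaminase of serine synthesis, had 92.3, 100.5 and 74.3 CPM with SA, against 319, 446 and 192 CPM in vehicle libraries. Its level was 97.4, 121 and 78.02 CPM in sgALAS1 libraries, against 121, 251 and 215 CPM in sgSCR libraries. The groups did not overlap with SA, and sgALAS1 replicate 2 lay just under sgSCR replicate 1. Its log2 fold change was -1.84 (SE 0.22, adjusted p = 9.87e-07) with SA and -0.99 (SE 0.22, adjusted p = 0.0025) with sgALAS1. PHGDH, which opens the serine pathway, had 35.9, 46.6 and 30.6 CPM with SA, against 123, 182 and 67.8 CPM in vehicle libraries. The sgALAS1 libraries held 56.3, 61.97 and 54.5 CPM of it, against 66.9, 114 and 79.9 CPM in sgSCR libraries. The 2 pairs of groups were both without overlap, and the change passed the test with SA (log2 fold change -1.73, adjusted p = 3.78e-06), while with sgALAS1 it missed the threshold in the fit of all libraries (-0.59, adjusted p = 0.0808). The sgALAS1 value passed in a fit of only sgALAS1 and sgSCR libraries (-0.599, adjusted p = 0.00946), without the filter on low counts (-0.597, 0.00151) and without sgSCR replicate 1 (-0.75, 0.0428). PSPH, which completes serine synthesis, fell with SA (log2 fold change -1.16, adjusted p = 9.09e-05). The mitochondrial enzymes followed the same direction. MTHFD2, of the folate pathway, had 177, 173 and 169 CPM with SA, against 358, 425 and 235 CPM in vehicle libraries. Its SA libraries lay close together and below the lowest vehicle library (log2 fold change -0.97, SE 0.16, adjusted p = 7.45e-05). SHMT2, which turns serine into glycine, averaged 123 ± 12.4 CPM with SA, against 210.5 ± 61.4 CPM in vehicle libraries (SD, n = 3 each; log2 fold change -0.77, adjusted p = 0.00111). ALDH1L2, which oxidises formyl-folate, averaged 11.00 ± 2.93 CPM with SA, against 32.9 ± 13.5 CPM in vehicle libraries (SD, n = 3 each; log2 fold change -1.58, adjusted p = 1.53e-04). In sgALAS1 libraries ALDH1L2 averaged 12.3 ± 3.64 CPM, against 21.6 ± 5.62 CPM in sgSCR libraries (SD, n = 3 each), with a log2 fold change of -0.82, adjusted p = 0.0482. That call ended in DESeq2 (adjusted p = 0.051), and it ended without sgSCR replicate 2 (log2 fold change -0.58, adjusted p = 0.284) or 3 (-0.89, 0.0616), and without sgALAS1 replicate 2 (-0.60, 0.217) or 3 (-0.87, 0.0727). With sgALAS1, PSPH (-0.55, adjusted p = 0.0686), SHMT2 (-0.41, adjusted p = 0.092) and MTHFD2 (-0.41, adjusted p = 0.0929) had negative log2 fold changes that missed the threshold. In the fit of only sgALAS1 and sgSCR libraries the adjusted p was 0.0283 for SHMT2 and 0.0382 for MTHFD2, without the filter 0.0312 and 0.0225, and without sgSCR replicate 1 MTHFD2 had 0.0352, so whether these genes pass depended on the fit.

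Of the 6 genes of other amino acid synthesis, the same 4 fell in both comparisons: ASNS, PYCR1, GPT2 and CTH. The shares called lower over all genes tested were 6.24% with SA and 6.85% with sgALAS1. ASNS, which makes asparagine, had 42.5, 45.2 and 38.1 CPM with SA, against 126, 202 and 49.7 CPM in vehicle libraries. Between the guides, it had 44.3, 41.1 and 40.3 CPM in sgALAS1 libraries, against 50.2, 104 and 73.2 CPM in sgSCR libraries. The SA and sgALAS1 libraries lay within a narrow range, and vehicle replicate 3 and sgSCR replicate 1 lay only a little above them. The log2 fold change was -1.59 (SE 0.28, adjusted p = 1.77e-04) with SA and -0.86 (SE 0.28, adjusted p = 0.0401) with sgALAS1. The second call ended in DESeq2 (adjusted p = 0.223) and without any one of the libraries other than sgSCR replicate 1, with log2 fold changes of -0.55 without sgSCR replicate 2, -0.88 without sgSCR replicate 3, and -0.90, -0.845 and -0.82 without sgALAS1 replicates 1, 2 and 3 (adjusted p 0.0706 to 0.303). CTH, which makes cysteine from cystathionine, had 3.69, 2.98 and 2.92 CPM with SA, against 15.3, 20.3 and 6.19 CPM in vehicle libraries. With sgALAS1 it had 3.396, 3.45 and 5.98 CPM, against 7.97, 11.1 and 9.26 CPM with sgSCR. It was low throughout, and both pairs of groups were without overlap. The log2 fold change was -2.12 (SE 0.38, adjusted p = 2.39e-04) with SA and -1.17 (SE 0.37, adjusted p = 0.0378) with sgALAS1. The second call ended without sgSCR replicate 2 (-1.02, adjusted p = 0.147) or 3 (-1.18, 0.0689) and without sgALAS1 replicate 1 (-1.02, 0.145) or 2 (-1.04, 0.12). GPT2, the mitochondrial alanine transaminase, averaged 23.00 ± 2.48 CPM with SA, against 68.2 ± 26.1 CPM in vehicle libraries (SD, n = 3 each; log2 fold change -1.57, adjusted p = 1.34e-05). With sgALAS1 its log2 fold change was -0.73, adjusted p = 0.0343, and the call ended without sgSCR replicate 2 (-0.65, adjusted p = 0.139) or 3 (-0.58, 0.163) and without sgALAS1 replicate 2 (-0.71, 0.0882) or 3 (-0.615, 0.135). PYCR1, the last enzyme of proline synthesis, averaged 44.8 ± 4.09 CPM with SA, against 72.1 ± 16.5 CPM in vehicle libraries (SD, n = 3 each; log2 fold change -0.69, adjusted p = 0.003). With sgALAS1 its log2 fold change was -0.52, adjusted p = 0.0257, and it missed the threshold without any one of the libraries other than sgSCR replicate 3 (-0.54 to -0.435, adjusted p 0.0594 to 0.137). PYCR1 is uncertain in one respect: the gene AC145207.4 overlaps it on the opposite strand and had 4048 reads to its 4067, so the strand that gave these reads is not settled. The remaining genes did not pass either test. CBS, which makes the cystathionine that CTH splits, had 146, 149 and 160.2 CPM with SA, against 187, 208 and 133 CPM in vehicle libraries, where replicate 3 lay below all SA libraries (log2 fold change -0.21, adjusted p = 0.331). In sgALAS1 libraries CBS had 167, 173 and 172 CPM, against 138, 168 and 146 CPM in sgSCR libraries (0.18, adjusted p = 0.441). ALDH18A1, which opens proline synthesis, had log2 fold changes of -0.37 (adjusted p = 0.161) with SA and -0.23 (adjusted p = 0.428) with sgALAS1.

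Of the 9 amino acid carriers 5 fell with SA and 3 with sgALAS1, beside 6.24% and 6.85% of all genes tested. SLC38A1 and SLC38A2 fell in both. SLC38A1, a carrier of glutamine and other small neutral amino acids, had 34.8, 33.6 and 36.6 CPM with SA, against 76.8, 89.7 and 61.8 CPM in vehicle libraries. Its level was 17.4, 19.3 and 22.6 CPM in sgALAS1 libraries, against 45.02, 42.8 and 41.00 CPM in sgSCR libraries. No groups overlapped, and the sgSCR libraries lay below the vehicle libraries too. The log2 fold change was -1.12 (SE 0.15, adjusted p = 6.96e-06) with SA and -1.12 (SE 0.16, adjusted p = 1.09e-05) with sgALAS1. SLC38A2, its close relative, had 83.5, 82.6 and 80.6 CPM with SA, against 169, 190.2 and 144 CPM in vehicle libraries. The sgALAS1 libraries held 70.8, 69.1 and 63.8 CPM of it, against 91.8, 114 and 95.4 CPM in sgSCR libraries. Its groups were again apart, with log2 fold changes of -1.03 (adjusted p = 1.05e-06) with SA and -0.56 (adjusted p = 0.00301) with sgALAS1. The other 3 of the 5 fell with SA and did not pass the test with sgALAS1, though SLC1A5 (-0.46, adjusted p = 0.132) passed it without sgSCR replicate 1 (-0.706, adjusted p = 0.0116) and without the filter on low counts (-0.463, 0.0098). SLC7A1, which imports arginine and lysine, averaged 88.1 ± 9.78 CPM with SA, against 147 ± 27.2 CPM in vehicle libraries (SD, n = 3 each; log2 fold change -0.74, adjusted p = 4.55e-04). The median log2 fold change of all tested genes on its chromosome, 13, was -0.39 with SA and -0.36 with sgALAS1, and its part in that result was not tested. SLC1A4, a carrier of alanine, serine and cysteine, averaged 59.8 ± 2.97 CPM with SA, against 108 ± 28.9 CPM in vehicle libraries (SD, n = 3 each; -0.86, adjusted p = 5.46e-04). SLC1A5, a glutamine carrier, had 129.8, 171 and 104 CPM with SA, against 225, 292 and 187 CPM in vehicle libraries. Its SA libraries were spread widely and lay below all vehicle libraries (log2 fold change -0.8, adjusted p = 0.00637). That call ended in DESeq2 (adjusted p = 0.0631), without vehicle replicate 2 (-0.62, 0.0714) and without SA replicate 3 (-0.64, 0.0665). SLC43A1, a carrier of large neutral amino acids, fell with sgALAS1: it had 32.6, 32.9 and 27.3 CPM in sgALAS1 libraries, against 43.8, 47.1 and 43.6 CPM in sgSCR libraries. The groups did not overlap, but the call (log2 fold change -0.53, adjusted p = 0.0478) ended when any 1 of the 6 libraries was left out, with values of -0.55, -0.49 and -0.55 without sgSCR replicates 1, 2 and 3 and -0.58, -0.58 and -0.44 without sgALAS1 replicates 1, 2 and 3 (adjusted p 0.0689 to 0.174). With SA its log2 fold change was -0.41, adjusted p = 0.15. Against the other control, sgALAS1 did not pass for SLC43A1 (-0.364, adjusted p = 0.186), while SA did (-0.576, 0.0296). SLC7A5, the main importer of leucine and other large neutral amino acids, had 171, 164 and 164 CPM with SA, against 262, 229.7 and 119 CPM in vehicle libraries. Vehicle replicates 1 and 2 lay above the SA libraries and replicate 3 below them (log2 fold change -0.29, adjusted p = 0.348; -0.56, adjusted p = 0.0212, without vehicle replicate 3). In the other pair it had 111, 103 and 158 CPM in sgALAS1 libraries, against 115, 161 and 155 CPM in sgSCR libraries (-0.22, adjusted p = 0.534). SLC7A6, an exchanger of cationic and neutral amino acids, had log2 fold changes of 0.12 (adjusted p = 0.693) with SA and -0.06 (adjusted p = 0.87) with sgALAS1. The glycine carrier SLC6A9 averaged 1.64 ± 1.26 CPM with SA, against 4.36 ± 3.12 CPM in vehicle libraries (SD, n = 3 each), and its change was not detectable at this depth (log2 fold change -1.4, SE 0.77, adjusted p = 0.265).

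**Figure D2:**
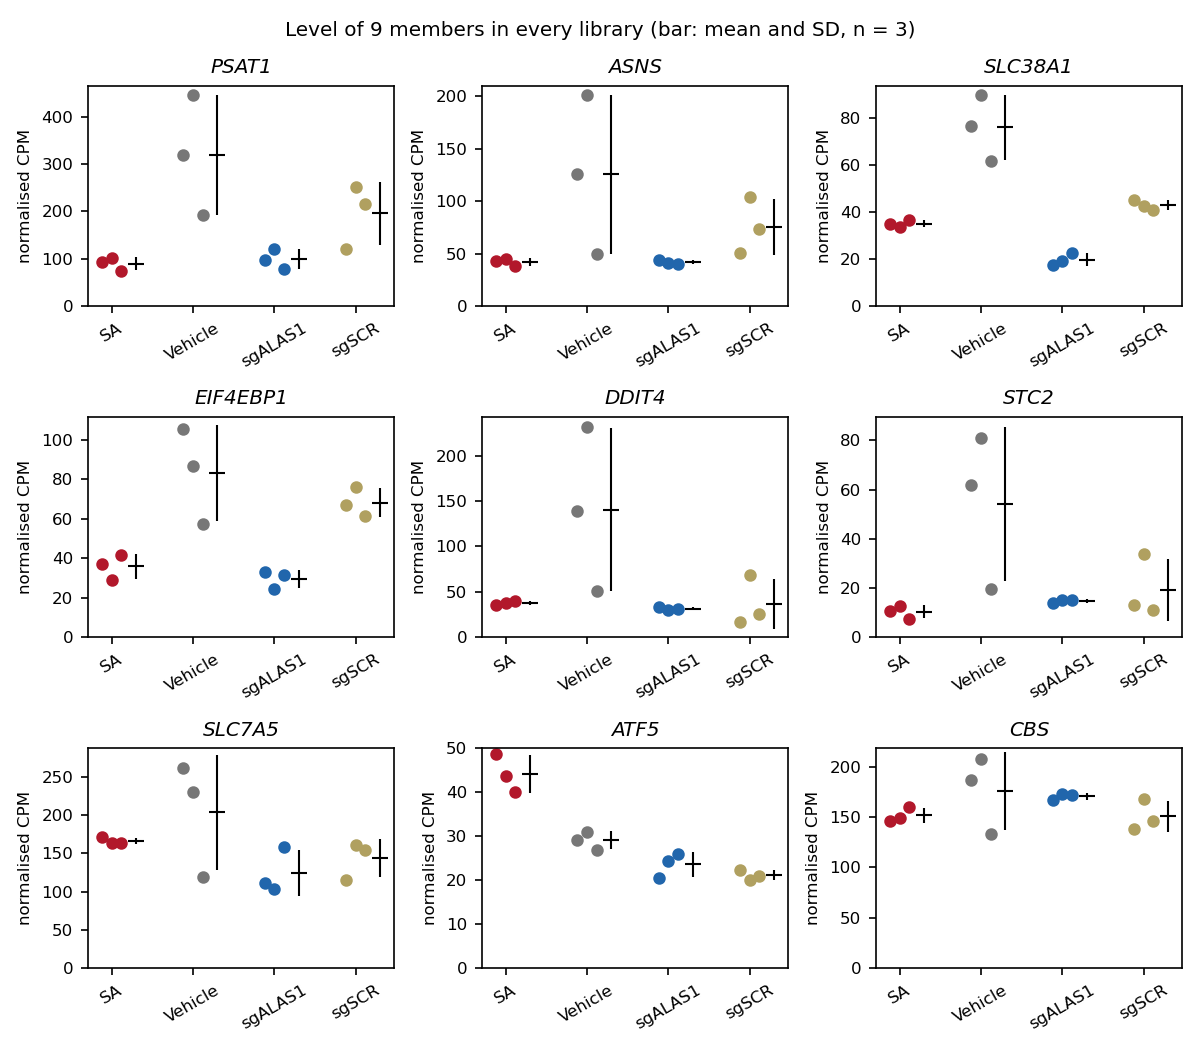
Normalised CPM (y axis, from 0) of 9 genes in each of the 12 libraries, with SA left of vehicle and sgALAS1 left of sgSCR; points are libraries and bars give the mean and SD of 3. SLC38A1 and EIF4EBP1 are without overlap in both pairs, while STC2 and DDIT4 overlap between sgALAS1 and sgSCR and vehicle replicate 3 lies far below vehicle replicates 1 and 2.

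Of the 5 transcription factors tested, 1 rose and 1 fell with SA, beside 4.83% and 6.24% of all genes tested. With sgALAS1 0 passed the test, and no pattern of the group is read from these counts. ATF5, a relative of ATF4, had 48.6, 43.6 and 40.05 CPM with SA, against 29.1, 30.97 and 26.9 CPM in vehicle libraries. All SA libraries lay above all vehicle libraries, and ATF5 rose (log2 fold change 0.6, SE 0.16, adjusted p = 0.0139). The call ended without vehicle replicate 3 (0.56, adjusted p = 0.0629) or SA replicate 1 (0.53, 0.0841). With sgALAS1 its log2 fold change was 0.16, adjusted p = 0.639. JDP2, a repressor that binds AP-1 and ATF sites, had 30.5, 33.6 and 23.99 CPM with SA, against 88.6, 59.4 and 42.1 CPM in vehicle libraries. All SA libraries lay lower (log2 fold change -1.12, SE 0.21, adjusted p = 4.16e-04), and with sgALAS1 the value was -0.46, adjusted p = 0.172. CEBPG, a C/EBP partner of ATF4, averaged 56.2 ± 6.59 CPM with SA, against 74.6 ± 9.61 CPM in vehicle libraries (SD, n = 3 each; -0.41, adjusted p = 0.0702; -0.51, adjusted p = 0.0432, without vehicle replicate 3). ATF3, an early stress factor, had 2.33, 7.76 and 6.49 CPM with SA, against 5.38, 7.79 and 3.19 CPM in vehicle libraries. Between the guides, it had 5.56, 6.36 and 10.4 CPM in sgALAS1 libraries, against 0.398, 6.11 and 4.79 CPM in sgSCR libraries. Both pairs overlapped, with log2 fold changes of 0.02 (adjusted p = 0.988) with SA and 0.93 (adjusted p = 0.272) with sgALAS1. NFIL3, a repressor of the bZIP class, averaged 12.1 ± 5.45 CPM with SA, against 10.9 ± 2.69 CPM in vehicle libraries (SD, n = 3 each; 0.13, adjusted p = 0.855). With sgALAS1, CEBPG (0.09, adjusted p = 0.786) and NFIL3 (-0.32, adjusted p = 0.59) did not pass the test either.

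All 4 brakes on growth signalling fell with SA, beside 6.24% of all genes tested. EIF4EBP1 alone of the 4 fell with sgALAS1, beside 6.85%, and no pattern of the group is read from 1 call. EIF4EBP1, which binds the cap-binding factor eIF4E and so restrains translation, had 36.9, 29.05 and 41.5 CPM with SA, against 106, 86.7 and 57.3 CPM in vehicle libraries. With sgALAS1 it had 32.7, 24.2 and 31.5 CPM, against 66.9, 76.2 and 61.3 CPM with sgSCR. Neither pair overlapped, and the log2 fold change was -1.21 (SE 0.18, adjusted p = 2.19e-05) with SA and -1.21 (SE 0.18, adjusted p = 2.21e-05) with sgALAS1. The median log2 fold change of all tested genes on its chromosome, 8, was -0.25 with SA and -0.34 with sgALAS1, and its part in the result was not tested. DDIT4, which restrains the growth kinase complex mTORC1, had 35.6, 37.4 and 40.2 CPM with SA, against 139, 232 and 51.1 CPM in vehicle libraries. Its level was 33.03, 29.4 and 30.8 CPM in sgALAS1 libraries, against 16.9, 68.1 and 24.96 CPM in sgSCR libraries. The SA libraries lay close together below all vehicle libraries (log2 fold change -1.9, SE 0.34, adjusted p = 3.20e-04), while sgSCR replicate 2 lay above and the other sgSCR libraries below all sgALAS1 libraries (-0.25, adjusted p = 0.736). DDIT4-AS1 overlaps DDIT4 on the opposite strand and had 4264 reads to its 4460, so these reads too cannot be given to one strand. SESN2, a leucine sensor that also restrains mTORC1, had 74.02, 65.3 and 74.6 CPM with SA, against 176, 168 and 72.6 CPM in vehicle libraries. Vehicle replicate 3 lay within the SA range, and the log2 fold change was -0.96 (SE 0.21, adjusted p = 0.00278). TRIB3, a pseudokinase that feeds back on ATF4, had 28.8, 27.9 and 32.1 CPM with SA, against 61.7, 66.00 and 31.1 CPM in vehicle libraries. Here too vehicle replicate 3 lay among the SA libraries (log2 fold change -0.84, adjusted p = 0.0114), and the call ended without vehicle replicate 2 (-0.66, adjusted p = 0.101). With sgALAS1 the log2 fold change was -0.07 (adjusted p = 0.899) for SESN2 and -0.58 (adjusted p = 0.0977) for TRIB3, which passed without sgSCR replicate 3 (-0.756, adjusted p = 0.0421) and without the filter (-0.583, 0.0281).

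The 3 genes for secreted factors and a receptor all fell with SA, beside 6.24% of all genes tested, with a median log2 fold change of -2.16. With sgALAS1 0 of them passed the test in edgeR or in DESeq2, beside 6.85% of all genes called lower in edgeR. At an unadjusted p under 0.05 edgeR gave 1 lower and 0 higher. STC2, a secreted glycoprotein, had 10.7, 12.7 and 7.46 CPM with SA, against 61.8, 81.1 and 19.5 CPM in vehicle libraries. The sgALAS1 libraries held 13.9, 14.9 and 15.1 CPM of it, against 12.9, 33.8 and 11.1 CPM in sgSCR libraries. Vehicle replicates 1 and 2 stood well above every other library, and sgSCR replicate 2 stood above the rest of its pair. The log2 fold change was -2.41 (SE 0.36, adjusted p = 2.68e-05) with SA and -0.41 (SE 0.36, adjusted p = 0.54) with sgALAS1. ADM2, a peptide hormone of the calcitonin family, had 7.77, 5.57 and 3.73 CPM with SA, against 37.9, 27.8 and 9.56 CPM in vehicle libraries. The groups did not overlap (-2.16, SE 0.38, adjusted p = 2.11e-04), and with sgALAS1 the log2 fold change was -0.97, adjusted p = 0.106, which passed without sgSCR replicate 1 (-1.28, adjusted p = 0.0362) and without the filter (-0.977, 0.0188). VLDLR, a lipoprotein receptor, had 2.72, 3.58 and 5.67 CPM with SA, against 12.3, 14.7 and 7.61 CPM in vehicle libraries. It too was without overlap (-1.51, SE 0.33, adjusted p = 0.00245), with a log2 fold change of 0.06 (adjusted p = 0.944) with sgALAS1. Of the last 3 genes, XPOT, which carries tRNA out of the nucleus, had 43.7, 41.2 and 40.5 CPM with SA, against 54.8, 68.7 and 58.9 CPM in vehicle libraries. It fell with SA (log2 fold change -0.54, adjusted p = 0.0121), and the call ended without vehicle replicate 2 (-0.445, adjusted p = 0.0893) or SA replicate 3 (-0.51, 0.0575). With sgALAS1 XPOT had a log2 fold change of -0.42, adjusted p = 0.0534, and its adjusted p was 0.041 in DESeq2 and 0.048 in the fit of only sgALAS1 and sgSCR libraries. KLHL24, an adaptor of a ubiquitin ligase, had log2 fold changes of -0.51 (adjusted p = 0.216) with SA and 0.25 (adjusted p = 0.583) with sgALAS1. MAP1LC3B, which coats autophagosomes, had log2 fold changes of 0.18 (adjusted p = 0.608) with SA and 0.49 (adjusted p = 0.0993) with sgALAS1, where it passed without sgSCR replicate 3 (0.663, adjusted p = 0.046). NUPR1, a stress-induced nuclear protein that was not tested, had 0 reads over the SA libraries, against 8 over the vehicle libraries, and 5 over the sgALAS1 libraries, against 0 over the sgSCR libraries. A count of 0 allows up to 3 reads in a library, a limit of 0.465 to 0.602 CPM before scaling factors across the SA and sgSCR libraries that covers counting error alone.

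The 2 comparisons share no library. The 9 genes called lower in both were PSAT1, ALDH1L2, ASNS, PYCR1, GPT2, CTH, SLC38A2, SLC38A1 and EIF4EBP1, which is 37.5% of the 24 lower with SA and 90.0% of the 10 lower with sgALAS1. Over all genes tested, 411 were lower in both, 47.6% of those lower with SA and 43.4% of those lower with sgALAS1. The difference between the effects (sgALAS1 minus sgSCR, less SA minus vehicle, on the log2 scale) was tested as 1 contrast. It was above 0 for 31 of the 36 genes, with a median of 0.54, beside 0.00 over all genes tested. The gap between the 2 control groups enters this contrast, and the median log2 fold change of sgSCR against vehicle was -0.55. The part of that gap in the difference was not tested. At an adjusted p under 0.05, 1 gene, STC2, differed upwards and 0 downwards, beside 0.427% and 0.759% of all genes tested (1.19% in either direction). At an unadjusted p under 0.05 there were 17 upwards and 0 downwards in edgeR, and DESeq2 called 0 in either direction. The shares just given are for adjusted p and are no background for the count of 17. The STC2 difference was 2.0 (SE 0.51, adjusted p = 0.0451), with an adjusted p of 0.235 in DESeq2. It ended without vehicle replicate 2 (1.59), SA replicate 1 (2.03) or 3 (1.79), sgSCR replicate 1 (1.79) or 3 (1.71), or any 1 sgALAS1 replicate (2.03, 1.97 and 1.98 without replicates 1, 2 and 3), at adjusted p 0.0641 to 0.233. Without vehicle replicate 3, 9 genes differed upwards: STC2, PHGDH, PSAT1, MTHFD2, ASNS, GPT2, SESN2, DDIT4 and VLDLR. Without sgSCR replicate 2 there were 3, STC2, PHGDH (1.37, adjusted p = 0.0299) and DDIT4 (2.46, 0.00268), and without SA replicate 2 there were 2, STC2 and PHGDH (1.31, 0.0385). Without the filter on low counts 6 differed upwards: STC2, PHGDH, PSAT1, ASNS, SESN2 and DDIT4. The smallest differences were 0.00477 for EIF4EBP1 (SE 0.26) and -0.00589 for SLC38A1 (SE 0.21), and both changed sign under several of the other settings. For 23 of the 24 genes lower with SA the log2 fold change was less negative with sgALAS1, though for the genes other than STC2 that difference did not pass the test in the fit of all libraries. These 24 were picked by their SA value, which also enters the difference. That choice tilts the count of 23 upwards, so no result is read from it.

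The 2 control groups were not alike for these genes. In sgSCR libraries 8 of the 36 genes were lower than in vehicle libraries (PSPH, MTHFD2, GPT2, SLC38A2, SLC38A1, SESN2, DDIT4 and STC2) and 0 were higher, beside 0.962% and 0.47% of all genes tested (1.43% in either direction). For 6 genes every sgSCR library lay below every vehicle library, beside 8.73% of all genes. At an unadjusted p under 0.05 there were 21 lower and 0 higher in edgeR, and DESeq2 called 0 higher. The median log2 fold change was -0.55, beside 0.01 over all genes tested. DDIT4 had the largest of these 8 changes, with 16.9, 68.1 and 24.96 CPM in sgSCR libraries, against 139, 232 and 51.1 CPM in vehicle libraries; the groups overlapped, and the log2 fold change was -1.93 (SE 0.34, adjusted p = 0.00184). SLC38A1 was without overlap between these groups (-0.83, SE 0.15, adjusted p = 0.00229). The calls of SLC38A2, SLC38A1, SESN2 and DDIT4 held with each of the 6 libraries left out. That of PSPH ended without vehicle replicate 2 (-0.63), sgSCR replicate 1 (-0.81) or sgSCR replicate 3 (-0.80). That of MTHFD2 ended without vehicle replicate 1 (-0.56) or 2 (-0.405) and without sgSCR replicate 1 (-0.46) or 3 (-0.57), and also in a fit of only sgSCR and vehicle libraries (-0.601, adjusted p = 0.0823). GPT2 lost its call without vehicle replicate 1 (-0.82) or 2 (-0.63) and without sgSCR replicate 1 (-0.68) or 2 (-0.96). STC2 lost its call in DESeq2 (adjusted p = 0.158), without vehicle replicate 2 (-1.08) and without sgSCR replicate 1 (-1.27) or 3 (-1.21). The count was 17 without vehicle replicate 3, 4 without vehicle replicate 2 or sgSCR replicate 1, and 5 without sgSCR replicate 3. The guide, doxycycline and the extra day of culture cannot be told apart in this comparison.

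Each treatment was also set against the control group of the other pair. With SA against sgSCR, 11 genes were lower and 1, ATF5, was higher, beside 7.65% and 5.91% of all genes tested, and the median log2 fold change was -0.34. Of the 24 genes lower against vehicle, 10 were also lower against sgSCR: PHGDH, PSAT1, SHMT2, ALDH1L2, ASNS, PYCR1, GPT2, CTH, EIF4EBP1 and XPOT. The other 14 did not pass, and among them were DDIT4 (0.03, adjusted p = 0.973), SESN2 (0.17, adjusted p = 0.681) and SLC38A1 (-0.29, adjusted p = 0.237). With sgALAS1 against vehicle, 24 genes were lower and 0 higher, beside 8.4% and 6.49% of all genes tested, with a median log2 fold change of -1.02. At an unadjusted p under 0.05 edgeR gave 25 lower and 0 higher. These comparisons share their treated libraries with those against vehicle and sgSCR above.

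**Figure D3:**
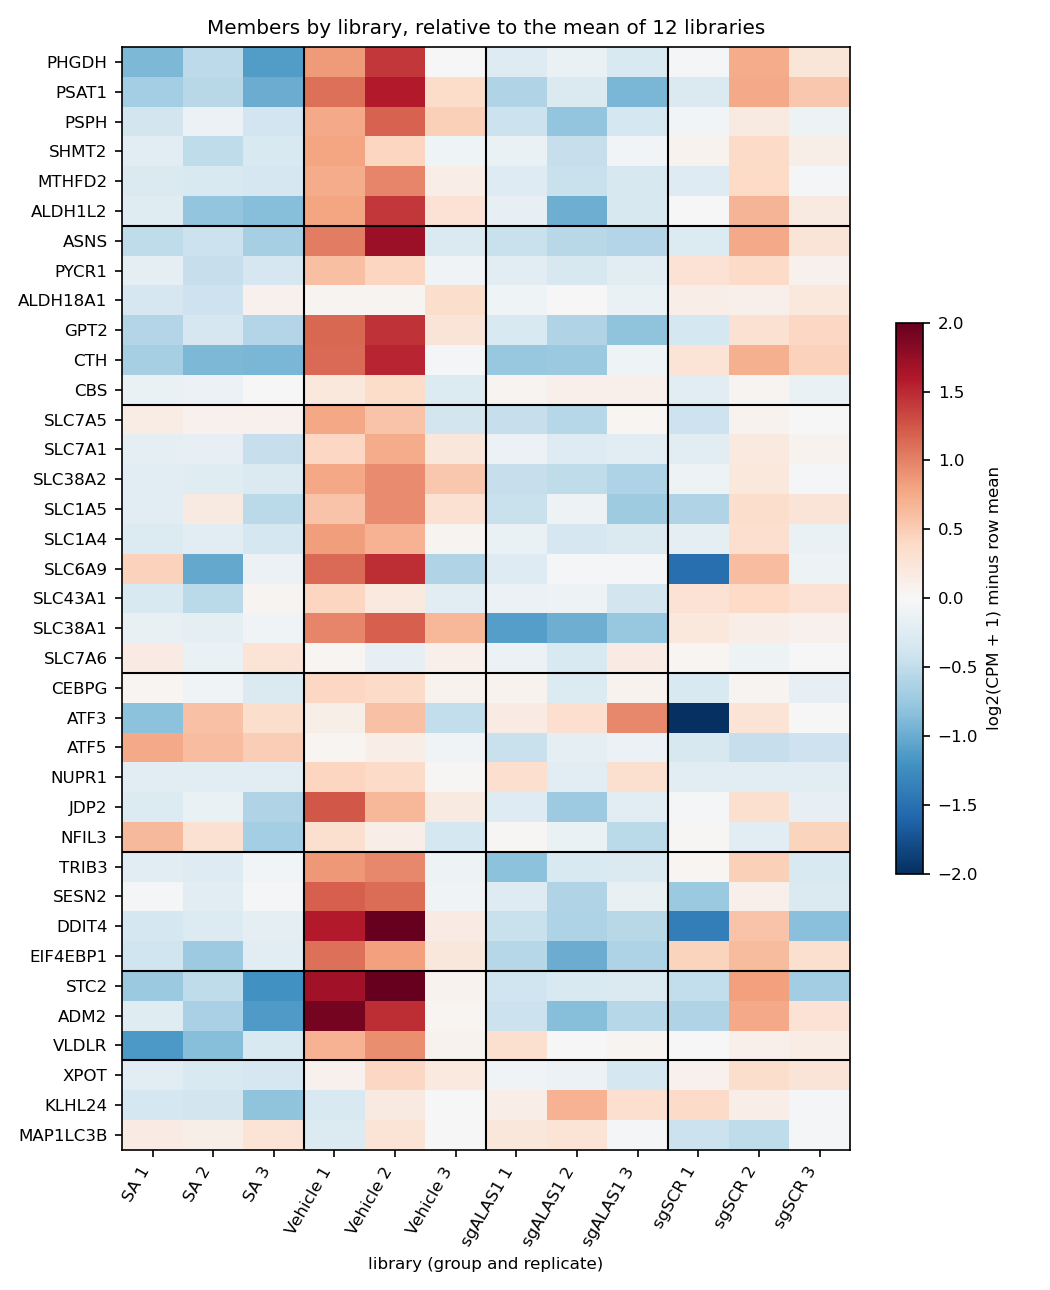
Log2(CPM + 1) of the 37 genes (rows, grouped by role) in the 12 libraries (columns), minus each gene's mean over the 12; red is above and blue below that mean, and colours stop at 2 either way. Vehicle replicates 1 and 2 are red for most genes, and vehicle replicate 3 and the sgSCR libraries are paler.

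The genes also varied together within the control groups. The summed level of the 37 genes was 1862, 1846 and 1761 CPM with SA, against 3677, 4173 and 2310 CPM in vehicle libraries. In the other pair it was 1787, 1714 and 1786 CPM in sgALAS1 libraries, against 1901, 2736 and 2269 CPM in sgSCR libraries. The 6 SA and sgALAS1 libraries lay within a narrow band below all controls, and sgSCR replicate 1 lay closest to them. Vehicle replicate 3 was the lowest of its group for 31 of the 36 tested genes, beside 32.9% of all genes, and vehicle replicate 2 the highest for 23, beside 32.1%. Replicate 2 of sgSCR was the highest of its group for 27, beside 33.1%, and replicate 1 the lowest for 22, beside 34.0%. For the 32 genes with a mean of at least 10 CPM the median SD of log2(CPM + 1) was 0.15 with SA, against 0.39 in vehicle libraries, and 0.19 in sgALAS1 libraries, against 0.26 in sgSCR libraries. Over all 8826 genes at that level the medians were 0.17 with SA, 0.19 in vehicle, 0.17 in sgALAS1 and 0.17 in sgSCR libraries. ATF4 mRNA followed the same order of libraries within the vehicle group, with 213, 228 and 189 CPM with SA, against 466, 533 and 303 CPM in vehicle libraries. In the other pair it was 200.04, 204 and 166 CPM in sgALAS1 libraries, against 204, 314 and 276 CPM in sgSCR libraries. What set these libraries apart was not tested.

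**Figure D4:**
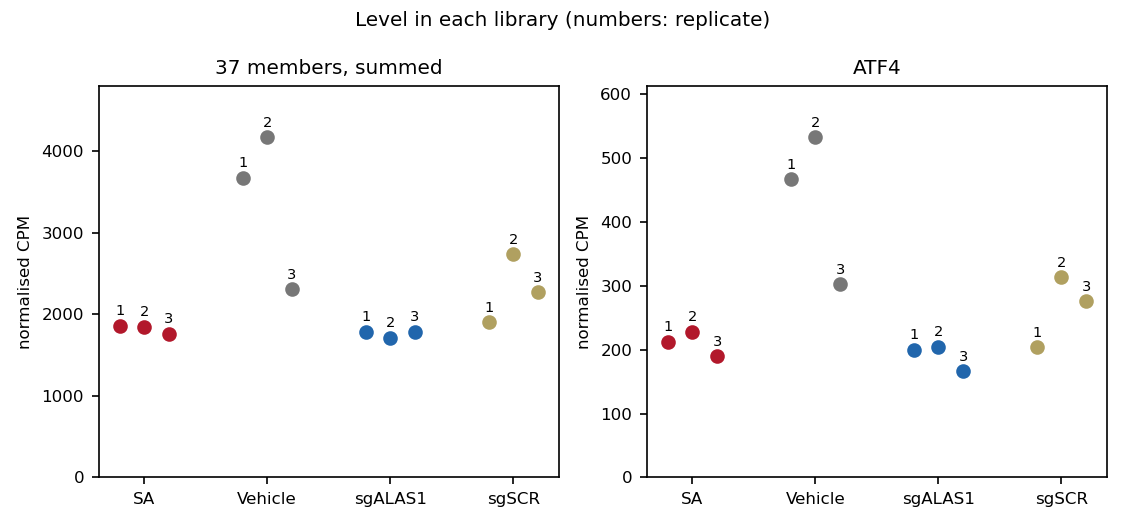
Summed normalised CPM of the 37 genes (left) and normalised CPM of ATF4 (right) in each library, with SA left of vehicle and sgALAS1 left of sgSCR; numbers mark the replicate. The summed level is 1714 to 1862 CPM in the 6 SA and sgALAS1 libraries and 1901 to 4173 CPM in the 6 control libraries.

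Of 14 further genes of the ATF4 pathway outside the 37, 12 were tested; SLC7A3 and FGF21 had no reads. With SA 6 of the 12 fell and 1 rose, beside 6.24% and 4.83% of all genes tested, and with sgALAS1 2 fell and 3 rose, beside 6.85% and 4.88%. ATF4 fell in both comparisons, with log2 fold changes of -1.05 (SE 0.16, adjusted p = 2.62e-05) with SA and -0.47 (SE 0.16, adjusted p = 0.0476) with sgALAS1. The second call ended without sgSCR replicate 2 (-0.325) or 3 (-0.44) and without sgALAS1 replicate 1 (-0.515), 2 (-0.53) or 3 (-0.38), at adjusted p 0.0576 to 0.293. CHAC1, which breaks down glutathione, had 20.98, 16.5 and 26.4 CPM with SA, against 189.8, 189 and 55.03 CPM in vehicle libraries. Between the guides, it had 10.3, 14.9 and 13.96 CPM in sgALAS1 libraries, against 13.9, 61.2 and 29.9 CPM in sgSCR libraries. Its log2 fold change was -2.76 (adjusted p = 2.23e-06) with SA and -1.45 (adjusted p = 0.01) with sgALAS1, and in the second pair sgSCR replicate 1 lay among the sgALAS1 libraries. That call ended in DESeq2 (adjusted p = 0.0945), without sgSCR replicate 2 (-0.765, 0.246) and without sgALAS1 replicate 1 (-1.29, 0.0676). DDIT3, which encodes the stress factor CHOP, fell with SA (-0.76, adjusted p = 0.00404), and that call ended without vehicle replicate 2 (-0.51, adjusted p = 0.0767). VEGFA, an angiogenic growth factor, fell with SA as well (-1.85, adjusted p = 2.19e-05). With SA set against sgSCR, ATF4 (-0.333, adjusted p = 0.172), CHAC1 (-0.724, 0.195), DDIT3 (-0.359, 0.189) and VEGFA (-0.682, 0.117) did not pass. In sgSCR libraries ATF4 (-0.714, adjusted p = 0.0111), CHAC1 (-2.03, 6.3e-04) and VEGFA (-1.17, 0.0129) were lower than in vehicle libraries, and DDIT3 did not pass (-0.40, 0.311). The ATF4 call between the controls ended without vehicle replicate 2 (-0.542, adjusted p = 0.154) or sgSCR replicate 1 (-0.559, 0.14). GDF15, a secreted stress hormone, moved the other way: it had 40.99, 21.9 and 33.7 CPM with SA, against 2.62, 2.37 and 1.77 CPM in vehicle libraries, and 28.2, 26.7 and 31.7 CPM in sgALAS1 libraries, against 3.19, 4.98 and 2.65 CPM in sgSCR libraries. It rose, with log2 fold changes of 3.81 (adjusted p = 1.41e-10) with SA and 2.98 (adjusted p = 1.78e-09) with sgALAS1. PPP1R15A, which reverses the phosphorylation of eIF2, rose with sgALAS1 (0.83, adjusted p = 0.00138), and with SA its value was 0.42, adjusted p = 0.1. PPP1R15A was lower in sgSCR than in vehicle libraries (-0.73, adjusted p = 0.02125). Against the other control, sgALAS1 did not pass for it (0.09, adjusted p = 0.775), while SA did (1.16, 2.11e-05). SQSTM1, an autophagy receptor, likewise rose with sgALAS1 (0.62, adjusted p = 0.00354) and had 0.21 (adjusted p = 0.393) with SA. For SQSTM1 too, sgALAS1 against vehicle did not pass (0.198, adjusted p = 0.405), while SA against sgSCR did (0.637, 0.00326).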

How the data were processed

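RNA of OCI-AML3 cells was sequenced with a QuantSeq 3′ kit, per the labels' protocols. The deposited values are raw counts per Ensembl gene in 12 libraries; the submitters' processing notes list bcl2fastq 2.17.1.14, cutadapt 1.14, HISAT2 2.0.4, featureCounts of Subread 2.0.0, edgeR 3.34.0, limma 3.48.3 and the build hg19. How the counting treated strand is not stated in the labels, so reads of overlapping genes on opposite strands cannot be told apart. Besides PYCR1 and DDIT4, this touches SHMT2 (11439 reads, NDUFA4L2 2466), MTHFD2 (16002, SLC4A5 1253) and ATF5 (2008, NUP62 6511), among others. With SA, NDUFA4L2 (-0.771, adjusted p = 0.0193 in edgeR) and SLC4A5 (-1.04, 0.00295) were lower too, and NUP62 did not pass (-0.212, 0.334). Of the 57905 identifiers, 51996 were named from a gene table and 342 from GENCODE release 29. The count tests used edgeR 4.0.16 in R 4.3.3: filterByExpr, TMM factors and the quasi-likelihood F test over all 12 libraries with 1 mean per group, with p-values adjusted (Benjamini-Hochberg) over 13832 genes and called at 0.05. Variation between replicates, as a biological coefficient, came to 16.4%. Folds and SEs are on the log2 scale of that fit. Alternatives were RLE factors, no filter, DESeq2 1.42.0, a fit of only the groups compared, a replicate block, each library left out, and the other control group.

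The 37 genes and all gene lists were chosen with earlier results of these data known. All 37 could be named; outside them, up to 4 genes per list with the smallest p in each of the 2 comparisons, ATF4, DDIT3 and ALAS1 were named with values. Replicates of a group differed by more than sampling noise (chi-square per degree of freedom 4.633 to 13.09), so none was counted as a duplicate. The test was also run on simulated counts with 200 changed genes. Promoter sequences are RefSeq's, on GRCh38.p14, and were used for sequence only. One list of marker genes and 1 further gene are not reported here.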

Additional observations from a re-analysis of the deposited data

Results flagged for a closer look

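STC2, the secreted glycoprotein, was flagged because its change differed between the 2 comparisons: the difference of the log2 fold changes (sgALAS1 minus sgSCR, less SA minus vehicle) was 2.0 in the edgeR test of the difference itself (adjusted p = 0.0451). It measured 10.7, 12.7 and 7.46 CPM with SA, against 61.8, 81.1 and 19.5 CPM in vehicle libraries, and 13.9, 14.9 and 15.1 CPM in sgALAS1 libraries, against 12.9, 33.8 and 11.1 CPM in sgSCR libraries. In DESeq2 the adjusted p was 0.235, and the call ended in 8 of the 12 fits that left out 1 library. Groups of 3 libraries were too small to flag single libraries.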

How the results depend on the processing

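The comparison of SA with vehicle depended most on the control group. With sgSCR in its place 11 genes were lower, the median log2 fold change was -0.336, and the sign turned for CBS (0.0102), SLC7A5 (0.208), CEBPG (0.0177), SESN2 (0.166) and DDIT4 (0.0274). With vehicle as control of sgALAS1, 24 genes were lower, the median was -1.02, and the sign turned for CBS (-0.0448), CEBPG (-0.341), ATF5 (-0.305) and VLDLR (-0.521). The cause was not tested. TMM and RLE factors gave the same 24 and 10 lower genes in number. Without the filter on low counts, 16 genes were lower with sgALAS1, 6 differed upwards between the effects and 16 were lower in sgSCR than in vehicle libraries; DESeq2 gave 0 upward differences. In fits of only the 2 groups compared, 24 genes were lower with SA, 14 with sgALAS1 and 7 in sgSCR than in vehicle libraries, where MTHFD2 lost its call. The difference of the effects turned sign for SLC38A1 without the filter (0.00657) and for EIF4EBP1 with RLE factors (-0.0031) and DESeq2 (-0.00327).

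Whether replicate numbers pair the libraries is not settled, and the main fit had no replicate block. The deviations of same-numbered libraries correlated at -0.0661 to 0.0572 for SA and vehicle, -0.0623 to 0.0185 for sgALAS1 and sgSCR, and 0.0261 to 0.0917 for sgSCR and vehicle. Values this near 0 in groups of 3 showed no clear pairing, but they cannot show that the libraries were unpaired. With the replicate block 13 genes were lower with sgALAS1, with PHGDH (-0.569, adjusted p = 0.0179), SLC1A5 (-0.461, 0.0374) and XPOT (-0.416, 0.0477) added. With the block 3 differed upwards between the effects, with PHGDH (1.1, 0.00603) and DDIT4 (1.63, 0.0236) added, and 12 were lower in sgSCR than in vehicle libraries. The block turned the sign of ATF3 with SA (-0.13), SLC6A9 with sgALAS1 (0.0117), EIF4EBP1 in the difference (-0.0275) and XPOT in sgSCR against vehicle (0.00126).

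Leaving out 1 library at a time gave 21 to 26 lower and 0 to 1 higher with SA, 4 to 12 lower and 0 to 1 higher with sgALAS1, 0 to 9 upward differences of the effects, and 4 to 17 lower in sgSCR than in vehicle libraries. The ranges that crossed 0 were, with SA, -0.289 to 0.379 for ATF3, -0.2 to 0.459 for NFIL3 and -0.353 to 0.208 for SLC38A5. With sgALAS1 they were -0.604 to 0.919 for SLC6A9, -0.18 to 0.0466 for SLC7A6, -0.255 to 0.176 for SESN2, -0.584 to 0.57 for DDIT4, -0.693 to 0.294 for STC2, -0.0664 to 0.123 for VLDLR and -0.263 to 0.118 for SLC43A2. In the difference they were -0.158 to 0.339 for SLC7A5, -0.306 to 0.0509 for SLC43A1, -0.137 to 0.114 for SLC38A1 and -0.214 to 0.203 for EIF4EBP1. In sgSCR against vehicle they were -0.265 to 0.053 for PYCR1, -0.0682 to 0.0896 for ALDH18A1, -0.0946 to 0.0341 for SLC7A6, -0.19 to 0.212 for NFIL3 and -0.0764 to 0.0949 for XPOT. At this depth the few reads of SLC6A9, ATF3 and NUPR1 limit what could be detected.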

Other observations

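Of 22 enzymes of amino acid metabolism outside the 37 genes, 20 were tested. With SA 5 fell and 2 rose, beside 6.24% and 4.83% of all genes tested. With sgALAS1 3 fell and 0 rose, beside 6.85% and 4.88%; at an unadjusted p under 0.05 edgeR gave 1 higher with sgALAS1. ASS1, which joins citrulline to aspartate in arginine synthesis, had 15.9, 18.3 and 18.3 CPM with SA, against 66.3, 98.2 and 39.3 CPM in vehicle libraries. In the other pair it had 25.3, 26.9 and 20.4 CPM in sgALAS1 libraries, against 65.1, 88.2 and 63.98 CPM in sgSCR libraries. Neither pair overlapped, and its log2 fold change was -1.95 (adjusted p = 3.35e-07) with SA and -1.58 (adjusted p = 3.79e-06) with sgALAS1. BCAT1, the cytosolic transaminase of branched-chain amino acids, fell, with log2 fold changes of -1.09 (adjusted p = 9.22e-06) with SA and -0.79 (adjusted p = 5.68e-04) with sgALAS1. GOT1, the cytosolic aspartate transaminase, fell with SA (-1.8, adjusted p = 3.00e-04), as did MTHFD1L of the mitochondrial folate pathway (-1.14, adjusted p = 2.08e-04). MTHFD1, of the cytosolic folate pathway, fell with SA (-0.56, adjusted p = 0.0229) and with sgALAS1 (-0.53, adjusted p = 0.0321). The first call ended without vehicle replicate 2 (-0.567, adjusted p = 0.0617) or 3 (-0.448, 0.134) or SA replicate 3 (-0.423, 0.167), and the second without sgSCR replicate 2 (-0.429, 0.178) or 3 (-0.553, 0.0601) or sgALAS1 replicate 1 (-0.392, 0.206) or 2 (-0.562, 0.0617). Against the other control, SA did not pass for MTHFD1 (-0.409, adjusted p = 0.101), while sgALAS1 did (-0.69, 0.0038). BCAT2, the mitochondrial transaminase of branched-chain amino acids, was named after its values were seen, and rose with SA against vehicle (0.96, adjusted p = 0.0171). It was also higher in sgSCR than in vehicle libraries, with means of 17.6 and 7.94 CPM (adjusted p = 0.0163 in edgeR). Against sgSCR, SA did not pass for BCAT2 (-0.192, adjusted p = 0.683), so its rise held against vehicle only.

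Of 17 further amino acid carriers 16 were tested. With SA 1 fell and 3 rose, beside 6.24% and 4.83% of all genes tested, and with sgALAS1 2 fell and 2 rose, beside 6.85% and 4.88%. At 16 genes a share of that size is about 1 gene. These counts, of genes that fell and of genes that rose, lie near or only a little above the background, and no result is read from them. SLC7A2, a carrier of cationic amino acids, fell with SA (-0.9, adjusted p = 0.0368) and with sgALAS1 (-0.91, adjusted p = 0.0307). The first call ended in a fit of only SA and vehicle libraries (-0.889, adjusted p = 0.0547), without vehicle replicate 1 (-0.545, 0.275) and without any 1 SA replicate (-1.02, -0.733 and -0.959 without replicates 1, 2 and 3, adjusted p 0.0529 to 0.137). The second ended without sgSCR replicate 2 (-0.878, 0.0931) or 3 (-0.825, 0.101) and without sgALAS1 replicate 1 (-0.995, 0.0586) or 2 (-0.704, 0.152). Against the other control, sgALAS1 did not pass for SLC7A2 (-0.74, adjusted p = 0.0748), while SA did (-1.07, 0.0108). SLC38A5, a glutamine carrier, fell with sgALAS1 (-0.81, adjusted p = 0.0179). That call ended without sgSCR replicate 1 (-0.654, adjusted p = 0.106) or 3 (-0.77, 0.0553) and without sgALAS1 replicate 1 (-0.825, 0.0559) or 2 (-0.644, 0.103). It also ended with vehicle as the control of sgALAS1 (-0.602, adjusted p = 0.0752). SLC7A7, which exchanges cationic for neutral amino acids, had 18.7, 16.3 and 15.1 CPM with SA, against 6.21, 5.58 and 5.13 CPM in vehicle libraries. In sgALAS1 libraries it had 12.2, 17.4 and 10.6 CPM, against 4.58, 7.71 and 6.94 CPM in sgSCR libraries. It rose in both, with log2 fold changes of 1.55 (adjusted p = 2.24e-04) with SA and 1.06 (adjusted p = 0.00957) with sgALAS1. The second call ended without sgSCR replicate 1 (0.87, adjusted p = 0.0687) or sgALAS1 replicate 2 (0.82, 0.0888). The myeloid marker sum also lay higher in both treated groups, and its part in the rise of SLC7A7 was not tested. The glutamate carrier SLC1A3 rose with sgALAS1 (1.5, adjusted p = 0.0216), and with SA its log2 fold change was 1.22, adjusted p = 0.0911. The rise ended without sgSCR replicate 2 (1.19, adjusted p = 0.122) and without sgALAS1 replicate 2 (1.36, 0.0886) or 3 (1.44, 0.0614). SLC43A2, a carrier of large neutral amino acids, rose with SA (0.61, adjusted p = 0.0179), and lost the call without vehicle replicate 2 (0.612, adjusted p = 0.0568) or 3 (0.539, 0.0851) or SA replicate 3 (0.522, 0.103). SLC25A22, a mitochondrial glutamate carrier, rose with SA as well (0.66, adjusted p = 0.0275), and lost the call without vehicle replicate 1 (0.621, adjusted p = 0.0718) or 2 (0.581, 0.125) or SA replicate 1 (0.463, 0.214).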
